A study of Arabidopsis thaliana with 16 samples.

Results

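The response to the synthetic auxin naphthaleneacetic acid (NAA) was examined in Arabidopsis roots whose protein synthesis was blocked with cycloheximide (CHX). The comparison set the NAA+CHX and NAA+DEX+CHX groups (4 arrays) against the CHX and DEX+CHX groups (4 arrays), which together are 8 of the 16 arrays of the study. The groups were chosen by their treatment labels alone. DEX, dexamethasone, was treated as a block: the change was taken within each DEX state and then averaged. All plants were gPUCHI:GR in the puchi-1 mutant, in which PUCHI (a factor of the AP2/ERF family that acts in lateral root formation) is made as a fusion to the glucocorticoid receptor under its own regulatory region, so that DEX lets the fusion protein enter the nucleus. Roots of 5-day-old seedlings were collected after 4 h with 10 µM CHX, with or without 1 µM NAA and 2 µM DEX. The groups without CHX were a mock group (0.1% DMSO), DEX, NAA and NAA+DEX. Each group had 2 independent mRNA samples, with 1 array each, so the number of arrays limits the precision. All groups carried the transgene and the mutation, and no other genotype is among the arrays analysed here.

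Auxin acts by bringing Aux/IAA repressors together with TIR1/AFB receptors, which leads to the breakdown of the repressors and frees the ARF transcription factors bound to them. Genes that ARFs reach directly can respond without new protein, and these primary response genes, among them Aux/IAA, GH3 and SAUR genes, are classically recognised by their response to auxin in the presence of CHX. CHX alone also raises many of them, since the short-lived repressors are no longer renewed. In roots, auxin further acts through LBD transcription factors to start lateral roots.

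The arrays were alike in scale, with medians of 7.58 to 7.68 on the log2(intensity + 16) scale, on which a difference of 1 is a 2-fold change of a bright signal and understates the change of a dim one. The correlation between the 2 arrays of a group was 0.983 to 0.989. The root hair expansins EXPA7 and EXPA18, markers of root tissue, lay above the array medians on every array. So did RCA, a marker of green tissue, at 8.34 to 8.77 on the 8 arrays with CHX and 8.64 to 9.52 on the others. In all, 4 pairs of control probe sets compare the 3′ with the 5′ end of a transcript, a sign of RNA or cDNA length. The GAPDH 3′/5′ ratio was 0.951 to 0.984 on the 4 arrays with CHX and no NAA and 1.04 to 1.27 on the 4 arrays with CHX and NAA, so these groups did not overlap. The ratios of an older GAPDH pair (0.763 to 1.24 against 0.957 to 1.57), of actin (2.13 to 2.74 against 2.69 to 3.65) and of ubiquitin (1.19 to 1.48 against 1.33 to 1.40) overlapped. Since these are whole roots, fewer cells of a type and less RNA per cell cannot be told apart.

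With protein synthesis blocked, NAA raised the auxin-conjugating genes GH3.3 and WES1, 3 Aux/IAA genes and the lateral root gene LBD29 in both DEX states, and lowered a larger set that held cell wall, peroxidase and organelle genes. Of 22746 probe sets tested, 1017 (4.47%) passed a limma adjusted p of 0.05 in the DEX average, 314 (1.38%) upward and 703 (3.09%) downward. Of these, 82 changed at least 2-fold, 30 up and 52 down. A stricter set had to pass in the average and in each DEX state in the same direction, and 127 probe sets (0.558%) did so, 23 up (0.101%) and 104 down (0.457%). All 23 rises and 103 of the 104 falls had the 4 NAA arrays beyond the 4 arrays without NAA, an order that passing the test on these same arrays all but fixes. It is a description, and nothing is read from the 9.65% of all probe sets that showed it (4.22% upward and 5.43% downward). The average count was 672 without CHX replicate 2, 618 without DEX+CHX replicate 2 and 619 without NAA+CHX replicate 2. The repeated count was 57 without NAA+CHX replicate 2, 60 without DEX+CHX replicate 2, 70 without NAA+DEX+CHX replicate 1, 73 without CHX replicate 2, 81 without DEX+CHX replicate 1 and 83 without CHX replicate 1. Without a trend of the variance with the mean level, the counts were 572 and 46, and the repeated count was 77 when only the 8 arrays with CHX were fitted.

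The GAPDH 3′/5′ ratio moved with NAA in these arrays, so it was also entered as a covariate, a choice made after the ratios were seen. With it, limma called 0 probe sets in the average (lowest adjusted p 0.0666), with 1432 at an unadjusted p under 0.05 in place of 3809. It called 34 without DEX (14 up and 20 down), 0 with DEX (1131 at an unadjusted p under 0.05) and so 0 repeated ones. In the average, the median standard error rose from 0.137 to 0.308. It rose from 0.194 to 0.261 without DEX and from 0.194 to 0.426 with DEX, where the lowest adjusted p was 0.588. With 1 mean per group, the covariate's slope rests on differences within groups, at most 0.165 in the log2 ratio, and is applied to differences between groups. All 127 repeated probe sets kept their sign in the average, and 121 of them had an unadjusted p under 0.05. All 127 also kept their sign in each DEX state, with an unadjusted p under 0.05 for 127 without DEX and 76 with DEX. They were chosen for passing on these same arrays, so this is a description. The median change of the 23 rises went from 1.09 to 1.00 and that of the 104 falls from -0.788 to -0.740. GH3.3 changed by 1.03 (limma adjusted p 0.108), LBD29 by 1.61 (0.0666) and XTH33 by -1.39 (0.18). Single genes were followed in this fit for 50 of those called in the average and named here. Most members of the families named at the end of these results, UGT71C1 among them, were not followed. Of the 50, 11 moved by over 1.5 times, all toward 0: GH3.1 to 0.14, TBL42 to 0.68, AT5G47440 to 0.50, EXPA7 to -0.18, EXPA18 to -0.25, AT4G25250 to -0.86, SP1L4 to -0.64, AT1G11380 to -0.65, AT4G30170 to -0.24, UPB1 to -0.49 and SIM to -0.53. The calls below are those without the covariate, and each of them in the DEX average is lost with it.

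The 2 DEX states were then set against each other. They share no array, but they share 1 variance estimate per probe set, so calls in both are not independent. NAA+CHX against CHX gave 293 calls (1.29%), 77 up (0.339%) and 216 down (0.95%). NAA+DEX+CHX against DEX+CHX gave 297 calls (1.31%), 66 up (0.29%) and 231 down (1.02%). Of the 77 rises without DEX, 23 were also called with DEX and 68 had the same sign there, with a median of 0.374 against 0.817 in the comparison that called them. Of the 216 falls without DEX, 104 were called with DEX and 208 had the same sign, with medians of -0.545 and -0.697. From the other side, 62 of 66 rises and 226 of 231 falls with DEX had the same sign without it, and no probe set was called in opposite directions. Each count fell when an array of its own 2 groups was left out: the one without DEX to 107 without NAA+CHX replicate 2, 140 without CHX replicate 2, 141 without CHX replicate 1 and 178 without NAA+CHX replicate 1, and the one with DEX to 95 without DEX+CHX replicate 2, 125 without NAA+DEX+CHX replicate 1, 134 without DEX+CHX replicate 1 and 178 without NAA+DEX+CHX replicate 2.

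**Figure D1:**
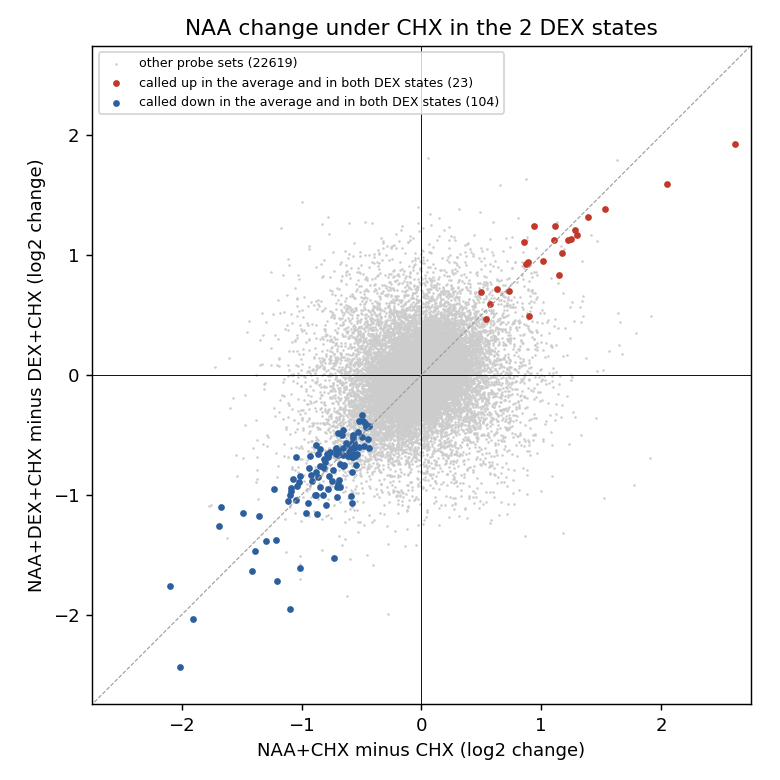
Each point is 1 of 22746 probe sets, with its log2 change NAA+CHX minus CHX on the x axis and NAA+DEX+CHX minus DEX+CHX on the y axis (means of 2 arrays each). The 23 repeated rises (red) and 104 repeated falls (blue), chosen by these values, lie near the dashed line of equal change, while the cloud of other probe sets (grey) spreads around 0 on both axes (Pearson r over all probe sets 0.238, a description).

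The test of whether the NAA change differed between the DEX states called 2 probe sets (0.00879%), 1 in each direction (0.0044%), with 1302 at an unadjusted p under 0.05. AT4G21780, whose function is not stated here, stood at 5.19 and 5.57 in CHX and 7.19 and 7.11 in NAA+CHX, but at 7.66 and 7.22 in DEX+CHX and 6.63 and 6.42 in NAA+DEX+CHX. Its NAA change was thus 1.77 without DEX and -0.92 with DEX, and the difference was -2.69 (SE 0.32, limma adjusted p 0.00555). The change without DEX passed the test (limma adjusted p 0.000702) and the one with DEX did not (limma adjusted p 0.0562). The second was the unnamed probe set 263285_at, with changes of -1.73 and 0.07 and a difference of 1.80 (SE 0.23, limma adjusted p 0.00967). No probe set was called when only the 8 arrays with CHX were fitted or when NAA+DEX+CHX replicate 2 was left out, and 1 was called without CHX replicate 2 and without DEX+CHX replicate 2. A pseudocount of 1 gave 4 and one of 64 gave 1.

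GH3 enzymes join auxin to amino acids, which removes it from the active pool, and 5 of the 11 listed were measured by name. In the DEX average 3 rose, 1 fell and 1 (GH3.9) did not pass, with a median change of 0.505 against 0.000856 over all probe sets, of which 1.38% rose and 3.09% fell. GH3.3 stood at 11.94 and 12.05 in CHX, 11.97 and 12.04 in DEX+CHX, 13.33 and 13.21 in NAA+CHX and 13.40 and 13.03 in NAA+DEX+CHX. All 4 arrays with NAA lay above all 4 without it, and the change was 1.28 without DEX and 1.21 with DEX, or 1.24 on average (SE 0.09, 2.37-fold, limma adjusted p 7.86e-07). Its level with CHX and no NAA was itself far above the mock (5.83 and 6.20), and NAA without CHX took it to 14.39 and 14.49.

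WES1, which encodes GH3.5, showed the same order at a smaller size. It stood at 10.22 and 9.93 in CHX, 10.36 and 10.06 in DEX+CHX, 11.11 and 11.07 in NAA+CHX and 11.07 and 11.26 in NAA+DEX+CHX. The groups with and without NAA did not overlap, and the average change was 0.98 (SE 0.08, limma adjusted p 4.84e-06). GH3.1 rose by 0.50 on average (SE 0.08, limma adjusted p 0.00161) and passed without DEX (0.59) but not with DEX (0.42, limma adjusted p 0.101), and the 2 changes were not called different.

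GH3.17, a further member active on auxin, went the other way. It stood at 9.91 and 9.95 in CHX, 10.07 and 10.06 in DEX+CHX, 9.67 and 9.48 in NAA+CHX and 9.63 and 9.68 in NAA+DEX+CHX, all 4 arrays with NAA being lower. The average change was -0.38 (SE 0.06, limma adjusted p 0.00126), and it passed with DEX (-0.41) but not without (-0.35, limma adjusted p 0.0513). Without CHX, NAA raised it by 0.52 (limma adjusted p 2.24e-06), and the difference between the changes with and without CHX was -0.90 (SE 0.08, limma adjusted p 5.41e-07).

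Of 29 Aux/IAA genes listed, 7 were measured by name, so their counts do not stand for the whole family. Among the 7, 3 rose and none fell (median 0.363, beside 1.38% and 3.09% of all probe sets). The 3 that rose, IAA20, IAA29 and IAA30, rose in both DEX states. IAA20 and IAA30 belong to the members that lack the degron through which auxin breaks the others down. IAA20 stood at 7.04 and 6.92 in CHX, 7.59 and 7.22 in DEX+CHX, 8.21 and 8.54 in NAA+CHX and 8.69 and 8.77 in NAA+DEX+CHX. Its groups did not overlap, and its average change of 1.36 (SE 0.15, 2.56-fold, limma adjusted p 5.42e-05) was the largest rise among the named repeated genes.

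IAA29 stood at 6.88 and 7.26 in CHX, 6.74 and 6.96 in DEX+CHX, 8.09 and 7.92 in NAA+CHX and 8.12 and 8.05 in NAA+DEX+CHX, a change of 1.09 (SE 0.12, limma adjusted p 5.71e-05). IAA30 stood at 10.16 and 9.89 in CHX, 10.14 and 9.96 in DEX+CHX, 10.85 and 10.95 in NAA+CHX and 11.12 and 10.84 in NAA+DEX+CHX, a change of 0.90 (SE 0.09, limma adjusted p 1.77e-05). In both genes every array with NAA was higher than every array without it. IAA18, IAA31, IAA33 and IAA34 did not pass the test, with changes of 0.16, 0.28, -0.43 and 0.36.

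**Figure D2:**
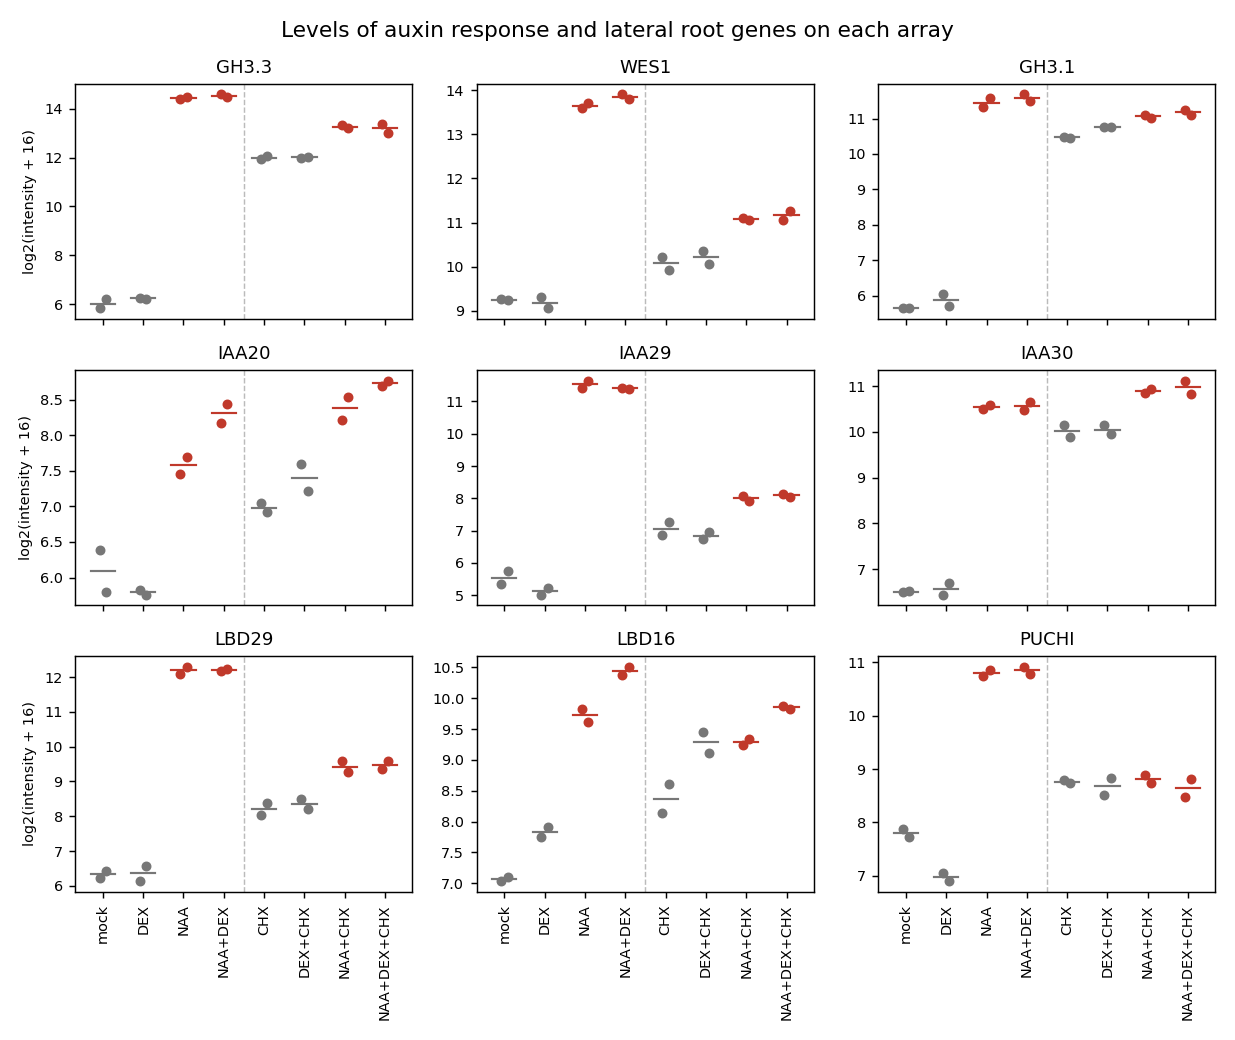
Levels on the log2(intensity + 16) scale on each array (points, 2 per group) with the group mean (bar), for 3 GH3 genes, 3 Aux/IAA genes, LBD29, LBD16 and PUCHI, red with NAA and grey without, the groups with CHX right of the dashed line. Under CHX the red points lie above the grey ones for all but LBD16, whose groups overlap across DEX states, and PUCHI, which shows no rise there.

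Of 5 lateral root regulators measured by name (of 21 listed), 3 rose in the average (median 0.743, beside 1.38% of all probe sets). LBD29, a LOB-domain factor that ARF7 and ARF19 activate in lateral root initiation, stood at 8.03 and 8.37 in CHX, 8.49 and 8.22 in DEX+CHX, 9.58 and 9.27 in NAA+CHX and 9.36 and 9.60 in NAA+DEX+CHX. Its groups did not overlap and its change of 1.18 (SE 0.12, 2.26-fold, limma adjusted p 1.76e-05) passed in both DEX states. The related LBD16 rose by 0.74 on average (SE 0.11, limma adjusted p 0.000579) and passed without DEX (0.92) but not with DEX (0.57, limma adjusted p 0.0813). It stood at 8.14 and 8.61 in CHX and 9.46 and 9.11 in DEX+CHX, against 9.24 and 9.34 in NAA+CHX and 9.88 and 9.83 in NAA+DEX+CHX, so the NAA+CHX arrays overlapped the DEX+CHX arrays.

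PUCHI itself did not pass the test with NAA under CHX. Its probe set does not tell the fusion from the mutant transcript, and it read 8.79 and 8.74 in CHX, 8.51 and 8.84 in DEX+CHX, 8.88 and 8.74 in NAA+CHX and 8.47 and 8.81 in NAA+DEX+CHX. The groups overlapped, and the average change was 0.00 (95% interval -0.20 to 0.21, limma adjusted p 0.993). Without CHX the DEX-averaged NAA change was 3.44, and the difference between the changes was -3.43 (SE 0.14, limma adjusted p 1.93e-11).

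CR4, the receptor kinase ACR4 that restricts divisions in the root, passed in the average (0.89, SE 0.18, limma adjusted p 0.00881) through the roots without DEX (1.57), while the change with DEX was 0.20 (limma adjusted p 0.822). It stood at 4.33 and 4.42 in CHX and 5.40 and 5.49 in DEX+CHX, low levels in both. The call ended in the additive fit to the 8 arrays with CHX (0.89, limma adjusted p 0.118), and the change ranged from 0.39 to 1.66 with the pseudocounts of 64 and 1. BBM, an AP2 factor of root stem cells, did not pass (0.34, limma adjusted p 0.156).

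Other auxin pathway genes did not pass in the average. AT5G14650, the measured member of the lateral root emergence list, changed by 0.28 (limma adjusted p 0.511). HAT2, a class II HD-ZIP factor induced early by auxin, changed by 0.28 (SE 0.08, limma adjusted p 0.0655), against 1.68 without CHX, and it passed in 4 alternative fits. None of 6 genes of auxin synthesis and oxidation (median -0.065), 3 cell cycle genes (median 0.000757), 2 cytokinin genes (median -0.434) or 3 rapid stress genes (median 0.0216) was called. Over all probe sets 4.47% were called, so the absence of calls among so few measured genes is a description only. These lists held 18, 38, 17 and 6 genes in that order, and the others could not be measured by name. No SAUR, ethylene synthesis, auxin transport or receptor and ARF gene could be measured by name with the annotation at hand. Among the rapid stress genes, the zinc finger gene STZ read 14.52 and 14.46 in CHX and 14.42 and 14.48 in NAA+CHX, a change of 0.00 on average, while NAA without CHX raised it by 1.36 from 6.77 and 7.33 in the mock. WRKY53, a senescence and stress WRKY factor, likewise changed by 0.03 with CHX and by 1.16 without.

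The other repeated rises by name were AT1G64405, AT5G47440, CP1, AT3G10720, scpl28 and AT4G19520. AT1G64405 rose by 0.99 (SE 0.09, limma adjusted p 4.84e-06), from 7.66 and 8.05 in CHX and 7.78 and 7.66 in DEX+CHX to 9.05 and 8.96 in NAA+CHX and 8.60 and 8.52 in NAA+DEX+CHX. AT5G47440 rose by 0.92 (SE 0.11), CP1 (cysteine proteinase 1) by 0.67 (SE 0.09), AT3G10720 (of the pectin methylesterase family) by 0.60 (SE 0.06) and scpl28 (a serine carboxypeptidase-like gene) by 0.58 (SE 0.09). Of the 23 rises 11 had no gene listed, including the largest changes of all, 2.27 for probe set 261766_at and 1.82 for 247869_at.

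AT4G19520, a disease resistance gene of the TIR-NBS-LRR class, was the named rise that went the other way without CHX. It stood at 10.34 and 10.02 in CHX, 10.21 and 10.23 in DEX+CHX, 11.00 and 11.08 in NAA+CHX and 11.46 and 11.21 in NAA+DEX+CHX, and rose by 0.98 (SE 0.11, limma adjusted p 4.53e-05). Without CHX it fell by 0.78 (limma adjusted p 1.73e-05), from 6.27 and 6.53 in the mock and 6.65 and 6.80 in DEX to 6.09 and 6.32 in NAA and 5.48 and 5.24 in NAA+DEX. The difference between the 2 changes was 1.76 (SE 0.15, limma adjusted p 2.04e-07).

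The NAA response with CHX was next set against the response without CHX (NAA and NAA+DEX against mock and DEX). The 2 responses share no array but share the variance estimate. Without CHX 8593 probe sets (37.8%) were called, 4319 up (19%) and 4274 down (18.8%). Of the 314 rises with CHX, 176 were also called up without it and 44 were called down, and of the 703 falls 488 were called down and 70 up. Seen from the response without CHX, 4.08% of its rises and 11.4% of its falls were called the same way with CHX, where 1.38% and 3.09% of all probe sets were called in those directions. The test of the difference between the 2 changes called 5527 probe sets (24.3%), 2685 in the positive direction (11.8%) and 2842 in the negative (12.5%).

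Among the 23 repeated rises, 21 were also called up without CHX, 1 was called down and 1 was not called. The rise was smaller with CHX for 19, larger for 2 and not called different for 2, with medians of 1.09 with CHX and 3.65 without. The median with CHX is one of values chosen for passing there. GH3.3 differed most: 1.24 against 8.37, a difference of -7.13 (SE 0.12, limma adjusted p 1.35e-15). LBD29 changed by 5.85 without CHX, IAA29 by 6.14, WES1 by 4.53, IAA30 by 4.02, AT1G64405 by 3.15 and AT5G47440 by 2.96, each called larger than with CHX. IAA20 (2.00), scpl28 (1.23) and AT3G10720 (0.88) were also larger without CHX, and CP1 (0.77) was not called different.

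The levels with CHX and no NAA bear on these sizes. For 11 of the 12 named repeated rises, all 4 arrays of CHX and DEX+CHX lay above all 4 of mock and DEX, the exception being AT1G64405, where all 4 lay below. Over all probe sets, 27.1% lay above in this way and 32.5% below. Among 30 repeated falls named in the text, UGT71C1 not counted, 9 lay above and 16 below. IAA30 read 6.50 and 6.51 in the mock, 10.16 and 9.89 in CHX and 10.51 and 10.60 in NAA, so its level with CHX alone was near that with NAA alone. IAA30 was highest with NAA and CHX together and IAA20 in NAA+DEX+CHX, whereas GH3.3, WES1, IAA29 and LBD29 were highest with NAA and no CHX. The part of these starting levels in the smaller changes was not tested.

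**Figure D3:**
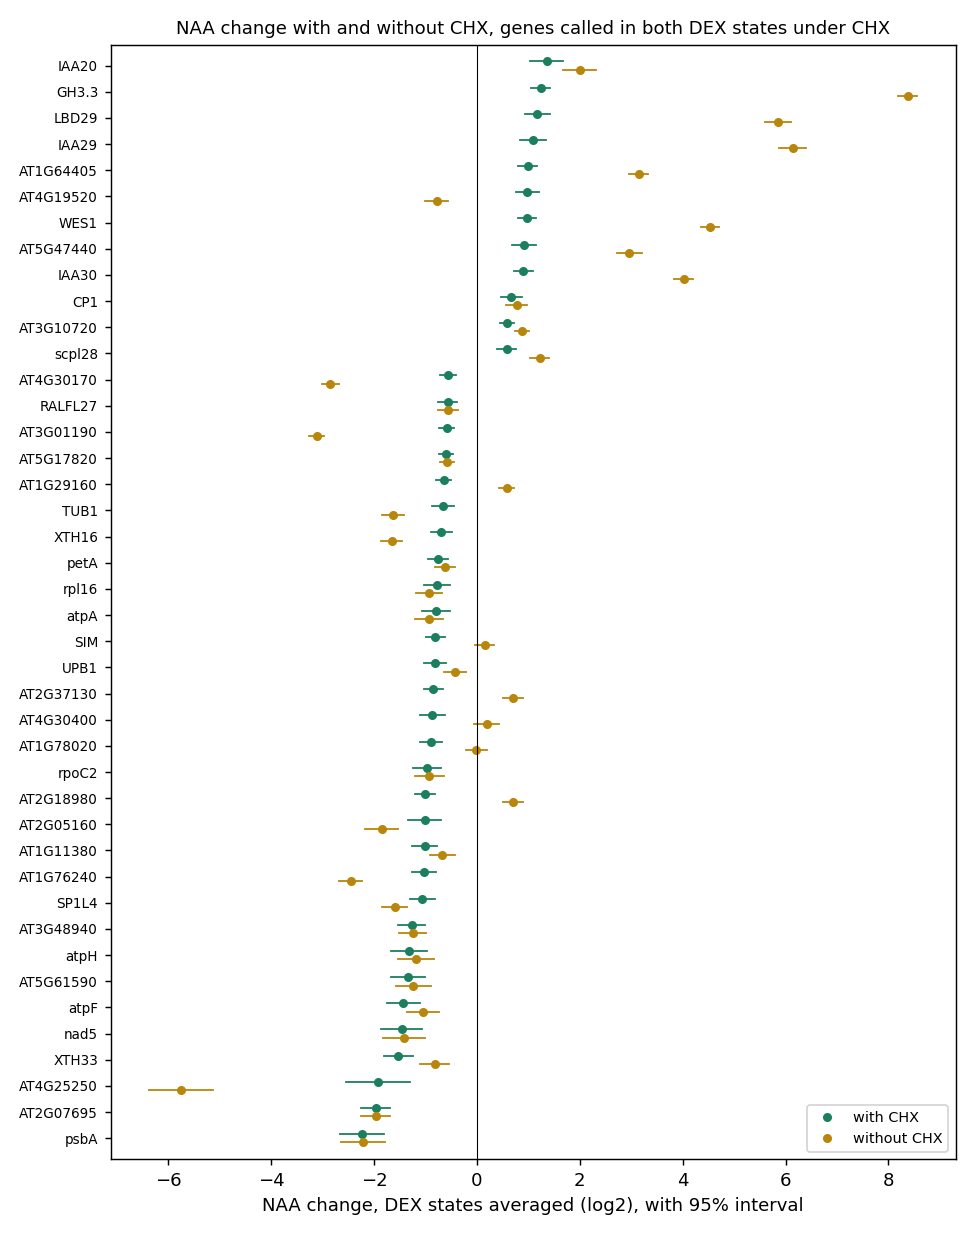
DEX-averaged NAA changes (log2) with their 95% intervals, with CHX (green) and without CHX (ochre), for the repeated genes named in the text except UGT71C1, ordered by the change with CHX by which they were chosen. GH3.3, IAA29 and LBD29 rose much more without CHX, AT2G18980, AT2G37130 and AT1G29160 rose without CHX and fell with it, and psbA and AT2G07695 changed alike.

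The 5 genes with the largest differences in each direction mark the extremes of that test. In the positive direction, all 5 fell without CHX and none was called with it. They were AT4G30450 and AT4G30460 (glycine-rich proteins), AT2G34610, AT1G19900 (of the galactose oxidase-like family) and AT3G45680 (a nitrate transporter family member), with differences of 5.21, 4.18, 4.65, 4.42 and 4.25. Over the alternative fits the changes with CHX were positive for AT2G34610 (0.35 to 0.98) and AT3G45680 (0.27 to 1.26). AT4G30450 read 11.21 and 11.26 in the mock and 6.24 and 6.18 in NAA, but 5.91 and 6.15 in CHX and 5.98 and 5.95 in NAA+CHX, so it was already low with CHX. In the other direction stood GH3.3, GH3.1 (-5.25), IAA29 (-5.05), AT4G37295 (-5.03) and AT1G30760 (a berberine bridge enzyme-like gene, -4.97). AT1G30760 rose by 4.58 without CHX and did not pass with it (-0.39, limma adjusted p 0.368), where it was low on all 8 arrays, with levels from 4.85 to 6.16.

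The 104 repeated falls comprised 51 probe sets with 1 gene, 6 with several and 47 with none listed. Of those with 1 gene, 9 were of listed organelle genes (7 of 69 plastid and 2 of 16 mitochondrial genes). Over all probe sets 0.457% were repeated falls. Probe sets with several genes or none listed were not sorted by organelle, and AT2G07695 is not among the 9. Of the 104 repeated falls, 87 were also called down without CHX, 7 were called up and 10 were not called. Over all probe sets 18.8% were called down and 19% up without CHX, and 24.3% were called different between the CHX states. The fall was smaller with CHX for 42, larger for 22 and not called different for 40, with medians of -0.788 with CHX and -0.910 without. The unnamed probe sets 254606_at and 254041_at fell by 1.53 and 1.47.

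Cell wall genes were among the named falls. XTH33, of the xyloglucan-modifying XTH enzymes, stood at 9.09 and 9.10 in CHX, 9.22 and 9.11 in DEX+CHX, 7.56 and 7.80 in NAA+CHX and 7.51 and 7.54 in NAA+DEX+CHX. Its groups did not overlap, and it changed by -1.53 (SE 0.13, a 2.88-fold fall, limma adjusted p 4.84e-06), more than without CHX (-0.82, difference -0.71, limma adjusted p 0.00976). Of 23 expansin and XTH genes measured by name (of 61 listed), 1 rose and 4 fell (median -0.165, 19 negative), beside 1.38% and 3.09% of all probe sets.

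The other members called were XTH16 (-0.69, SE 0.10, repeated in both DEX states), EXPA7 (-0.60), EXPA18 (-0.39) and the riser XTH19 (0.49, SE 0.07, limma adjusted p 0.000816). XTH19 fell by 0.32 without CHX, and the difference of 0.82 was called (limma adjusted p 1.61e-05). EXPA7 and EXPA18, expansins of root hairs, were the 2 members of the root hair and root tissue lists that could be measured by name, and EXPA18 lost its call in 11 alternative fits (limma adjusted p up to 0.143).

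AT4G25250, of the pectin methylesterase inhibitor family, stood at 7.18 and 7.09 in CHX, 7.18 and 6.96 in DEX+CHX, 5.74 and 4.33 in NAA+CHX and 4.92 and 5.71 in NAA+DEX+CHX. The groups did not overlap, though the arrays with NAA spread widely, and the change was -1.93 (SE 0.29, limma adjusted p 0.00102). Without CHX it fell by 5.74, from 10.48 and 10.24 in the mock to 4.44 and 4.70 in NAA. The part of this floor in the smaller fall with CHX was not tested. SP1L4, of the SPIRAL1 family that binds microtubules, changed by -1.06 (SE 0.12) with CHX and -1.59 without, and the tubulin gene TUB1 by -0.66 (SE 0.10) and -1.63. RALFL27, of the RALF peptides that signal through wall-sensing receptor kinases, changed by -0.57 (SE 0.09) with CHX and -0.56 without.

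Class III peroxidases, secreted enzymes that cross-link or loosen walls through reactive oxygen, held 9 falls and no rise among 55 measured genes (median -0.0979), and 5 of the falls repeated in both DEX states. Over all probe sets 3.09% fell, 1.38% rose and 0.457% were repeated falls. AT2G18980 stood at 10.81 and 10.86 in CHX, 10.94 and 10.76 in DEX+CHX, 9.94 and 9.85 in NAA+CHX and 9.81 and 9.75 in NAA+DEX+CHX, a change of -1.01 (SE 0.09, limma adjusted p 6.53e-06) with no overlap. Without CHX it rose by 0.70 (limma adjusted p 8.43e-06), to 12.54 and 12.83 in NAA from 11.69 and 12.06 in the mock. The difference of -1.71 was called (SE 0.13, limma adjusted p 3.82e-08).

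AT2G37130 turned in the same way. It stood at 9.17 and 9.19 in CHX, 9.32 and 9.13 in DEX+CHX, 8.37 and 8.23 in NAA+CHX and 8.62 and 8.20 in NAA+DEX+CHX, a change of -0.84 (SE 0.09, limma adjusted p 4.03e-05), against 0.71 without CHX. The difference was -1.55 (SE 0.13, limma adjusted p 1.18e-07). AT5G17820 changed alike in both settings, by -0.60 with CHX (SE 0.06) and -0.58 without. AT3G01190 and AT4G30170 changed by -0.58 and -0.56 with CHX and by -3.11 and -2.85 without, which were called larger falls.

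Regulators among the repeated falls were also read individually. AT5G61590, the AP2/ERF factor DEWAX that represses wax synthesis genes, stood at 9.15 and 9.23 in CHX, 8.55 and 8.86 in DEX+CHX, 7.94 and 7.85 in NAA+CHX and 7.01 and 7.63 in NAA+DEX+CHX. Its groups did not overlap, and its change of -1.34 (SE 0.16, limma adjusted p 9.82e-05) was not called different from that without CHX (-1.23). AT2G05160, a CCCH zinc finger gene, fell by 1.01 (SE 0.15) with CHX and by 1.85 without.

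UPB1, SIM, AT1G29160, AT1G78020 and AT4G30400 were singled out after their values were seen, and so were AT3G01190 and AT4G30170. UPB1, a bHLH factor that represses peroxidase genes at the transition from division to elongation, stood between 8.76 and 9.23 on the 4 arrays of CHX and DEX+CHX, at 8.18 and 8.21 in NAA+CHX and at 8.04 and 8.42 in NAA+DEX+CHX. All 4 arrays with NAA were lower, and the change was -0.81 (SE 0.10, limma adjusted p 0.000145) with CHX and -0.43 without. The difference was not called (limma adjusted p 0.057).

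SIM (SIAMESE), a cyclin-dependent kinase inhibitor that promotes endoreduplication, fell by 0.81 with CHX (SE 0.09, limma adjusted p 4.44e-05). It stood at 9.87 and 9.57 in CHX, 9.84 and 9.79 in DEX+CHX, 9.20 and 8.86 in NAA+CHX and 8.83 and 8.96 in NAA+DEX+CHX, without overlap. Without CHX its change of 0.15 did not pass (limma adjusted p 0.198), and the difference of -0.96 was called (SE 0.12, limma adjusted p 1.98e-05).

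AT1G29160, the Dof factor COG1, fell by 0.64 with CHX and rose by 0.58 without it, a called difference of -1.22. AT1G78020 changed by -0.89 with CHX and -0.01 without, and AT4G30400, a RING finger gene, by -0.86 and 0.20, and the differences of -0.88 and -1.06 were called in both. AT3G48940, of the remorin family, changed by -1.27 (SE 0.12), AT1G76240 by -1.03 (SE 0.11) and AT1G11380, of the PLAC8 family, by -1.02 (SE 0.12). Without CHX these 3 changed by -1.25, -2.45 and -0.67.

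**Figure D4:**
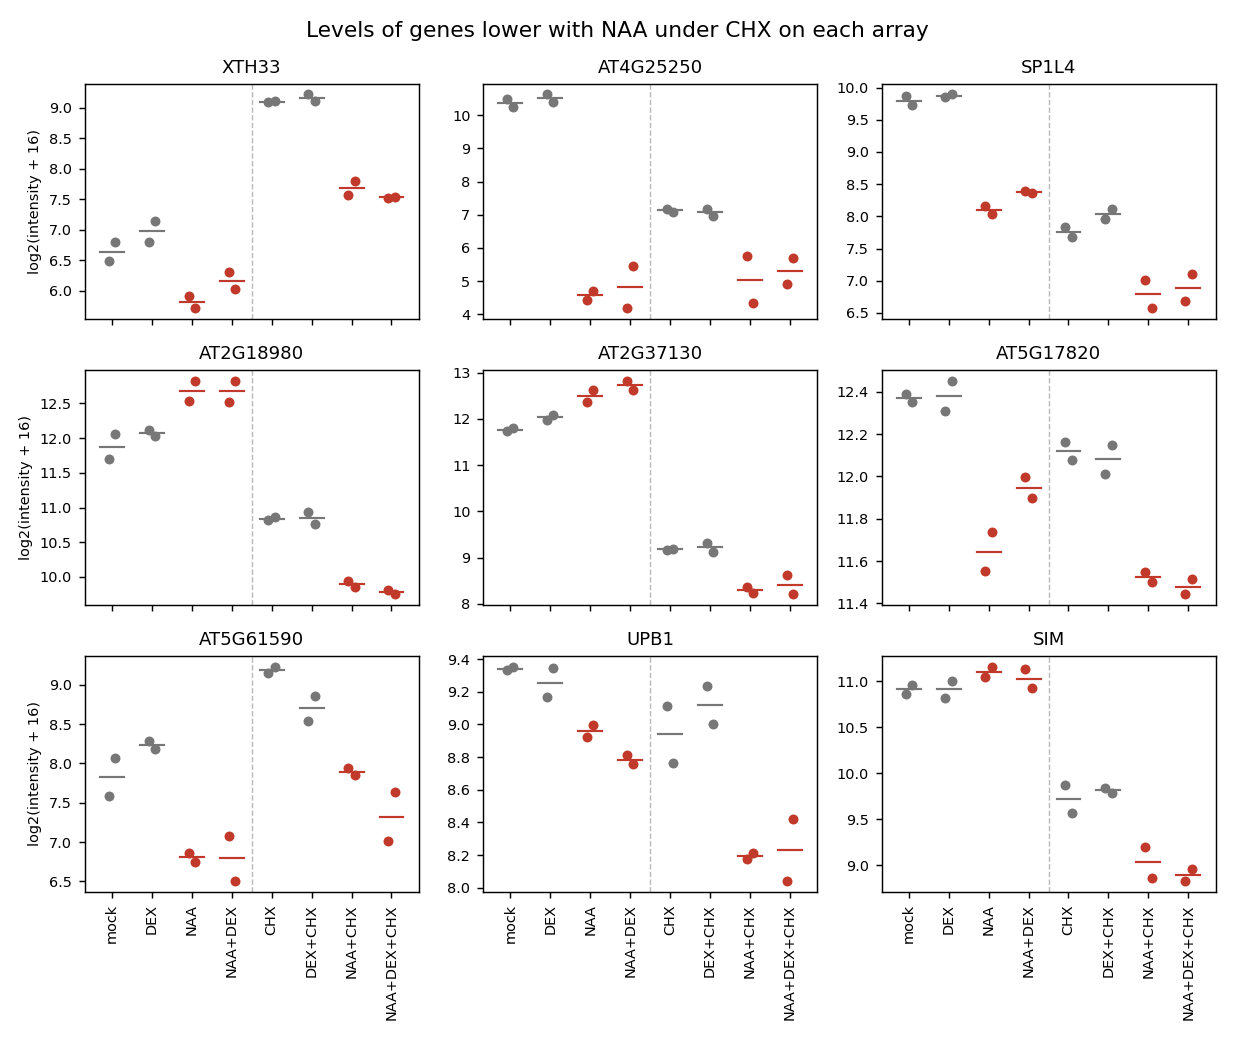
Levels on the log2(intensity + 16) scale on each array (points, 2 per group) with the group mean (bar) for 9 repeated falls, red with NAA and grey without, the groups with CHX right of the dashed line. Right of the line all red points lie below all grey ones in each panel, an order by which most of these genes were chosen, while left of it AT2G18980 and AT2G37130 lie higher with NAA.

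Organelle genes were also among the named falls. The plastid gene psbA, for the D1 protein of photosystem II, stood at 8.08 and 8.69 in CHX, 9.10 and 8.33 in DEX+CHX, 6.83 and 5.92 in NAA+CHX and 6.40 and 6.15 in NAA+DEX+CHX. It changed by -2.22 (SE 0.20, a 4.67-fold fall, limma adjusted p 7.04e-06) with no overlap, and by -2.21 without CHX. The ATP synthase genes atpF, atpH and atpA changed by -1.43 (SE 0.15), -1.32 (SE 0.17) and -0.79 (SE 0.13), the arrays of atpA overlapping, and the plastid RNA polymerase gene rpoC2 by -0.97 (SE 0.13).

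Of 69 plastid-encoded genes, 24 fell, none rose and 63 had a negative change (median -0.428), where 3.09% of all probe sets fell and 1.38% rose. By complex, 4 of 6 ATP synthase genes fell, 3 of 5 photosystem I genes, 4 of 15 photosystem II genes, 2 of 6 cytochrome genes (petA by -0.76 among them) and none of 10 NAD(P)H dehydrogenase genes. Of the ribosomal protein genes 3 of 7 for the large subunit (rpl16 by -0.76) and 1 of 8 for the small subunit fell, and so did 2 of 4 RNA polymerase genes, both ycf genes and 3 of 6 others. Without CHX 39 of the 69 fell, with a median of -0.479, where 18.8% of all probe sets fell. Whether signals of organelle genes on these 3′ arrays follow their transcript levels was not tested, nor whether the 24 falls are separate changes.

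Of 16 mitochondrial genes 3 fell (median -0.189), and nad5, of respiratory complex I, changed by -1.46 (SE 0.19), on a probe set that may match related sequences. AT2G07695, a cytochrome oxidase gene in the mitochondrial insertion of chromosome 2, likewise on such a probe set, stood at 9.86 and 9.36 in CHX, 9.58 and 9.33 in DEX+CHX, 7.61 and 7.81 in NAA+CHX and 7.23 and 7.61 in NAA+DEX+CHX. It changed by -1.97 with CHX (SE 0.13, limma adjusted p 6.26e-07) and by -1.97 without, and its signal cannot be told apart from those of the mitochondrial copy.

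Nuclear photosystem genes, 8 in number, had no call and a median of -0.216, and RCA did not pass (-0.12, limma adjusted p 0.657). Of these 8 genes, 7 had a negative change. Without CHX 7 of the 8 fell, with a median of -0.609, where 18.8% of all probe sets fell. The median level of the plastid genes was 8.03 to 8.58 on the arrays with CHX and no NAA and 7.46 to 7.77 on those with CHX and NAA. It was 9.27 to 9.57 without CHX or NAA. With CHX the same groups were separated by the GAPDH 3′/5′ ratio, and with the ratio as a covariate psbA changed by -2.34 (limma adjusted p 0.128).

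**Figure D5:**
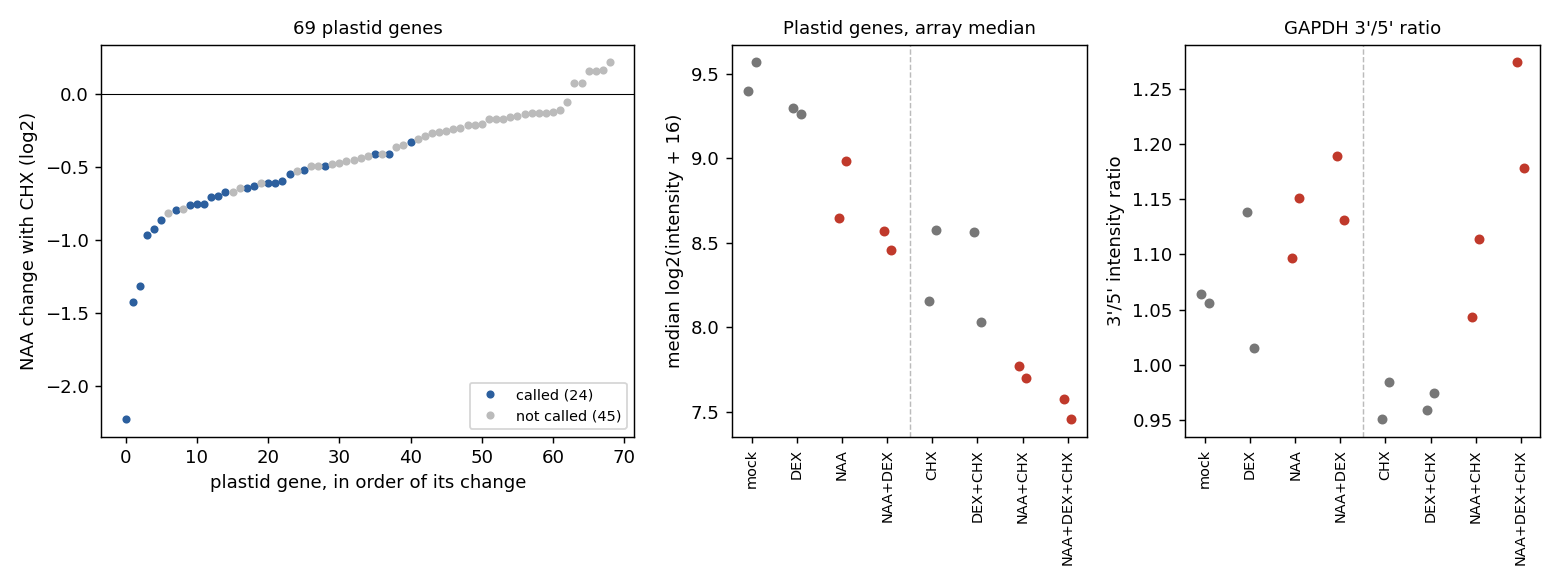
Left, the NAA change with CHX (log2, DEX states averaged) of 69 plastid genes in order of size, with the 24 called falls in blue. Middle and right, the median level of the plastid genes and the GAPDH 3′/5′ intensity ratio on each array, red with NAA and grey without: with CHX the red points lie below the grey ones in the middle panel and above them in the right panel.

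Other gene families, listed after values of these data had been seen, are given by their counts beside the 1.38% of probe sets that rose and 3.09% that fell. There were 1 rise and 4 falls among 47 UDP-glycosyltransferases, 1 rise and 5 falls among 22 TBL wall acetylation genes, 1 rise and 1 fall among 29 serine carboxypeptidase-like genes and 1 rise and 1 fall among 11 IQD genes. Falls alone were called for 3 of 11 tau glutathione transferases, 3 of 10 RALF-like peptides, 2 of 7 tubulins and 1 of 20 beta-glucosidases. No gene was called among 26 cytochromes P450, 14 SWEET transporters or 15 tetraspanins. The list medians lay between -0.165 and 0.112. Several of these calls did not hold in the alternative fits, the GAPDH covariate aside. UGT76E2, the UDP-glycosyltransferase rise, lost its call in 18 of 23. Of 24 fits, the call was lost in 19 for RALFL33, 15 for TBL41, 14 for UGT72E1, 10 for TUB5 and 8 for IQD22. GSTU28, BGLU16 and scpl40 lost theirs in 7 each, and RALFL24, GSTU20, IQD19 and TBL38 in 2 to 5. UGT85A2, UGT71C1, scpl28, TBL25, GSTU26, RALFL27 and TUB1 kept theirs in all. TBL42 had the largest change in these families, at 1.29 (limma adjusted p over the alternatives 0.0081 to 0.0791), and its call ended at the pseudocount of 1 (2.18) and on leaving out CHX replicate 1, DEX+CHX replicate 1, NAA+CHX replicate 2 or NAA+DEX+CHX replicate 2.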

How the data were processed

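RNA of 16 root samples was measured on 1-colour Affymetrix 3' arrays, 1 array per sample. The authors deposited 1 linear intensity for each probe set, made with Affymetrix Expression Console 1.3, per the submitters' processing notes. Which signal algorithm it ran is not given in those notes. The mean of each array without its lowest and highest 2% was 500.05 when checked, so the arrays had been scaled to 1 level. Arrays have no count of reads, and precision rests on how many arrays there are.

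Of 22810 probe sets, 64 controls were left out and 22746 were tested. The probe annotation at hand lists 1 gene for 13513, several for 503 and none for 8730. Symbols of 13436 probe sets were brought up to date by matching gene IDs to the TAIR10.1 gene table. For the 147 genes with several probe sets, the brightest one stands for the gene.

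The deposited intensities were put on the log2(intensity + 16) scale. Linear models with 1 mean per group used all 16 arrays (limma 3.58.1, R 4.3.3), with a variance trend (8 residual and 7.94 prior degrees of freedom). Tests were 2-sided, and a call needed an adjusted p (Benjamini-Hochberg, over all 22746) below 0.05. Contrasts were the NAA change with CHX in each DEX state, their average and difference, the DEX-averaged NAA change without CHX, and the difference with minus without CHX. The DEX-averaged NAA changes with and without CHX share no arrays with each other, and their difference uses the arrays of both. All fits share 1 variance estimate. The code was tested on simulated data. Figures were drawn with matplotlib.

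The members, lists and tests were chosen with earlier results of these data known, and 16 of the gene lists were drawn up after values had been seen, so their counts are descriptions. One of these lists is not reported here. Genes were named by rule: PUCHI, the 15 repeated rises and 15 repeated falls with the largest average change among probe sets with 1 gene whose 4 NAA arrays lay beyond the other 4 (12 rises qualified), up to 4 called or 2 uncalled genes per list, and the 5 genes with the largest called difference in each direction between DEX states and between CHX states. Of the genes so named in the families listed later, those described are a part. Peroxidases AT3G01190 and AT4G30170 and the regulators said to be singled out were added after their values were seen.

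Replicate numbers were not used to pair samples: for equal numbers, deviations from the group means correlated by -0.0464 to 0.0643 over the pairs of groups. Alternatives were quantile normalization, pseudocounts of 1 and 64, the 60% brightest probe sets, no variance trend, a replicate block, the 8 arrays with CHX alone (with 1 mean per group or additive terms), a 2-fold minimum and each array left out, plus the GAPDH 3'/5' covariate added later. A planned description of promoter motifs was not made, since no promoter sequences were at hand.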

Additional observations from a re-analysis of the deposited data

Results flagged for a closer look

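The results here were picked out because the NAA change differed between 2 settings by a test of the difference itself. Groups of 2 arrays were too small to test whether an array lay apart from its group. The causes of these differences were not tested.

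Between the DEX states under CHX, 2 probe sets differed, of which AT4G21780 has a listed gene (DEX minus no DEX, -2.69). Between the CHX states, 5527 probe sets differed. Differences are given as the log2 NAA change with CHX minus that without CHX.

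Auxin response genes had negative differences: GH3.3 -7.13, GH3.1 -5.25, WES1 -3.55, GH3.17 -0.90, IAA29 -5.05, IAA30 -3.12, IAA20 -0.64 and HAT2 -1.41. The same direction was seen for the lateral root genes LBD29 (-4.68), LBD16 (-1.89) and PUCHI (-3.43), for the stress genes STZ (-1.36) and WRKY53 (-1.12), and for AT1G64405 (-2.16), AT5G47440 (-2.05), AT3G10720 (-0.29), AT5G14650 (-0.99), scpl28 (-0.64), AT4G37295 (-5.03) and AT1G30760 (-4.97). AT4G19520 differed by 1.76, since it rose with CHX and fell without.

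Genes that fell with CHX and rose or were not called without it had negative differences: AT2G18980 -1.71, AT2G37130 -1.55, AT1G29160 -1.22, AT4G30400 -1.06, SIM -0.96 and AT1G78020 -0.88. XTH33 fell more with CHX (-0.71).

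Positive differences belonged to genes that fell without CHX and fell less or were not called with it: AT4G30450 5.21, AT2G34610 4.65, AT1G19900 4.42, AT3G45680 4.25, AT4G30460 4.18, AT4G25250 3.81, AT3G01190 2.53, AT4G30170 2.29, AT1G76240 1.43, TUB1 0.97, XTH16 0.96, AT2G05160 0.84, SP1L4 0.54 and RCA 0.43. XTH19 differed by 0.82, with a rise with CHX and a fall without.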

How the results depend on the processing

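Groups of 2 arrays limit every count, and leaving out 1 array assumes that the lone array of its group varies like the other groups. With each of the 16 arrays left out in turn, the calls for NAA with CHX ran from 618 to 928 in the DEX average, from 107 to 295 without DEX, from 95 to 306 with DEX and from 57 to 117 for those repeated in both. The DEX difference ran from 0 to 3, NAA without CHX from 7576 to 8665 and the difference with minus without CHX from 4960 to 5256.

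Without a variance trend the 4 counts with CHX were 572, 114, 100 and 46. With only the 8 arrays with CHX and 1 mean per group, the counts without DEX, with DEX and repeated were 176, 129 and 77, and the DEX difference gave 0. That difference gave 4 with a pseudocount of 1 and 1 with 64. A minimum of a 2-fold change left 82, 75, 75 and 27 for NAA with CHX, 1752 without CHX and 1657 for the difference. The GAPDH 3'/5' ratio as a covariate gave 0 in the average (1432 at an unadjusted p under 0.05), 34 without DEX, 0 with DEX, 0 repeated, 1 for the DEX difference and 3620 for with minus without CHX. Whether RNA length or the inflated standard error ended these calls was not tested.

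With the replicate block the counts were 973, 265, 279, 122, 3, 8596 and 5510 in the order of the first paragraph. After quantile normalization the median over all probe sets shifted by less than 0.1 in each comparison. For the average change of the 124 genes followed, the alternatives other than the GAPDH covariate gave 2963 values: 2815 kept the direction and side of the threshold, 139 lost the call, 9 gained it and 0 reversed. All named repeated rises and falls of the rule kept their calls in the average there. They were chosen for passing with large changes, so this is a description. Whether each of them also stayed called in each DEX state was not followed.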
